A study of Mus musculus with 9 samples.

Results

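The RNAs described here are the long noncoding genes that were measured best in Caki, a human cell line established from a clear cell carcinoma of the kidney. They were chosen from the raw counts, as genes whose deposited biotype is lincRNA, antisense, processed_transcript, sense_intronic or sense_overlapping and whose mean count over the 9 libraries is at least 100. MEG3, H19 and chromosome 3 were left out. This left 196 of 14163 genes of these biotypes, in a table of 58735 genes. Of the other 13967, 6624 had no count in any library. Just inside the minimum were GPRC5D-AS1 with a mean count of 100, HHIP-AS1 with 100.1 and LINC02001 with 102. Just outside it were AC060780.1 with 99.7, APTR with 98.4 and AC005332.5 with 97.9.

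The cells carried a retroviral vector with the constitutively active YAP1 mutant S127A (YAPS127A), a vector with wild-type YAP1 (YAP1), or the empty vector (MX). All cells had been selected with G418, and each group had 3 libraries made with a stranded mRNA kit. Nothing in the labels ties the 3 libraries of a group to separate cultures, transductions or clones, so the p-values below speak only of variation between libraries, and that variation may be technical. YAP1 is a transcriptional co-activator that the Hippo kinases keep out of the nucleus by phosphorylation, and the mutant lacks one of the phosphorylated serines.

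Long noncoding RNAs are transcripts without a known protein product. Some stay in the nucleus and organise it, as NEAT1 does in paraspeckles. Others are the spliced remainder of genes whose introns or exons yield small nucleolar RNAs (snoRNAs) or microRNAs, and many are transcribed from the opposite strand of, or from a promoter shared with, a coding gene. A kit that captures polyadenylated RNA measures those that carry a poly(A) tail, and MALAT1, which ends in a triple helix in place of one, can be captured through an A-rich stretch of its own sequence.

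Total counts ran from 15789722 to 24811150 per library, so that 3 counts stand for 0.121 to 0.190 CPM by total counts alone. CPM, the library-scaled count used throughout, also includes the TMM factor of each library. These factors ran from 0.807 in YAPS127A replicate 1 to 1.132 in MX replicate 1. The YAP1 gene had 741, 692 and 631 CPM in YAPS127A cells, 1519, 1003 and 1137 CPM in YAP1 cells and 108, 100.3 and 91.1 CPM in MX cells. Of 16 markers of kidney tubule and clear cell carcinoma, 12 had a mean above 1 CPM, among them PAX8 with 281 CPM, while CA9 had 0.334 and PAX2 0.00584 CPM. Leukocyte markers reached 1 CPM in 1 of 9 genes and endothelial markers in 0 of 6. Of 9 fibroblast markers 4 did, with COL1A1 highest and PDGFRA and THY1 near 0; their sum was 2147 to 3960 CPM in YAPS127A cells, 1337 to 1690 in YAP1 cells and 774 to 1309 in MX cells. In RNA from whole cultures, fewer cells that make an RNA and less of it per cell cannot be told apart. Genes of the mitochondrial genome took 29.6, 7.40 and 21.2% of the counts in YAPS127A libraries, 3.50, 8.60 and 11.4% in YAP1 libraries and 5.89, 6.60 and 1.896% in MX libraries. The part of the fibroblast markers and of the mitochondrial share in the differences below was not tested, except where a fit with or without such libraries is given.

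The 196 RNAs comprised 91 lincRNAs, 57 antisense RNAs, 37 processed transcripts, 6 sense overlapping and 5 sense intronic genes on 22 chromosomes. A symbol was attached to 137 of them, and 59 were known by a clone name. The annotated span overlapped a coding gene on the opposite strand for 91 RNAs and on the same strand for 28, while 91 overlapped none. The sources used here do not state how the counting treated strand, so reads of overlapping genes may be shared. Their median mean count was 213 and the highest 7972, and 33 reached 500. The 10 most counted held 42.9% of all counts of the 196. Per kilobase of deposited gene length, the median level was 3.39 CPM, against 6.57 CPM for the 10348 coding genes with a mean count of at least 100.

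The highest levels per kilobase were those of SNHG5 with 68.7 CPM, SNHG6 with 55.1, AFAP1-AS1 with 51.7, NORAD with 44.3 and SNHG8 with 43.6. LINC00958 followed with 37.3 CPM per kilobase, GAS5 with 37.1, LRRC75A-AS1 with 36.7, AC099850.3 with 31.6 and DANCR with 27.8. Thus 6 of these 10 were host genes of snoRNAs, while NORAD is an abundant cytoplasmic RNA that binds Pumilio proteins. Replicates of the 196 varied about as much as those of coding genes at such counts: the median biological coefficient of variation fitted by edgeR was 0.139 for the 163 RNAs with a mean count of 100 to 500 and 0.130 for 3978 coding genes in that range. The least precise were AL161431.1 with 0.590, MALAT1 with 0.476, AC020916.1 with 0.282 and MIR210HG with 0.274.

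Changes with the constructs were tested over all 15492 genes that had enough counts, which included all 196. An RNA is called here when its p from the quasi-likelihood test of edgeR, adjusted by Benjamini-Hochberg over all tested genes, is under 0.05, and log2 fold changes are given ± SE. In YAPS127A cells against MX cells, 40 RNAs were called, 18 higher and 22 lower, which is 20.4% of the 196 where 18.4% of all tested genes were called, 9.53% higher and 8.84% lower. In YAP1 cells against MX cells, 15 RNAs were called, 8 higher and 7 lower, or 7.65% against 6.81% of all tested genes, of which 3.23% were higher and 3.58% lower. Between YAPS127A and YAP1 cells, 5 RNAs were called, 2 higher and 3 lower, or 2.55% against 1.97% of all tested genes, of which 1.13% were higher and 0.839% lower. At an unadjusted p under 0.05 there were 65, 41 and 35 RNAs in these comparisons, against 31.3%, 19.8% and 12.3% of all tested genes. With libraries scaled by total counts in place of TMM, the calls were 10 higher and 59 lower in YAPS127A against MX, 3 higher and 8 lower in YAP1 against MX and 2 higher and 10 lower between the constructs. Over all tested genes total counts gave 4447, 990 and 616 calls in these comparisons, against 2845, 1055 and 305 with TMM. With YAPS127A replicate 2 as its group's only library, the median log2 fold change against MX was -0.13 for the 196 RNAs. Over all tested genes it was -0.02 in that fit. The shares called are near those of all genes, and a mean count minimum set over all libraries was met by 38 of the 196 although at least 1 group averaged under 100. Without the libraries of YAPS127A, YAP1 or MX, 4, 2 and 14 of the 196 would fall under it, so for these the choice itself leans to a higher level in that group. The median log2 fold change was -0.08, -0.10 and 0.03 in these comparisons in turn. Both comparisons against MX use the same MX libraries.

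**Figure D1:**
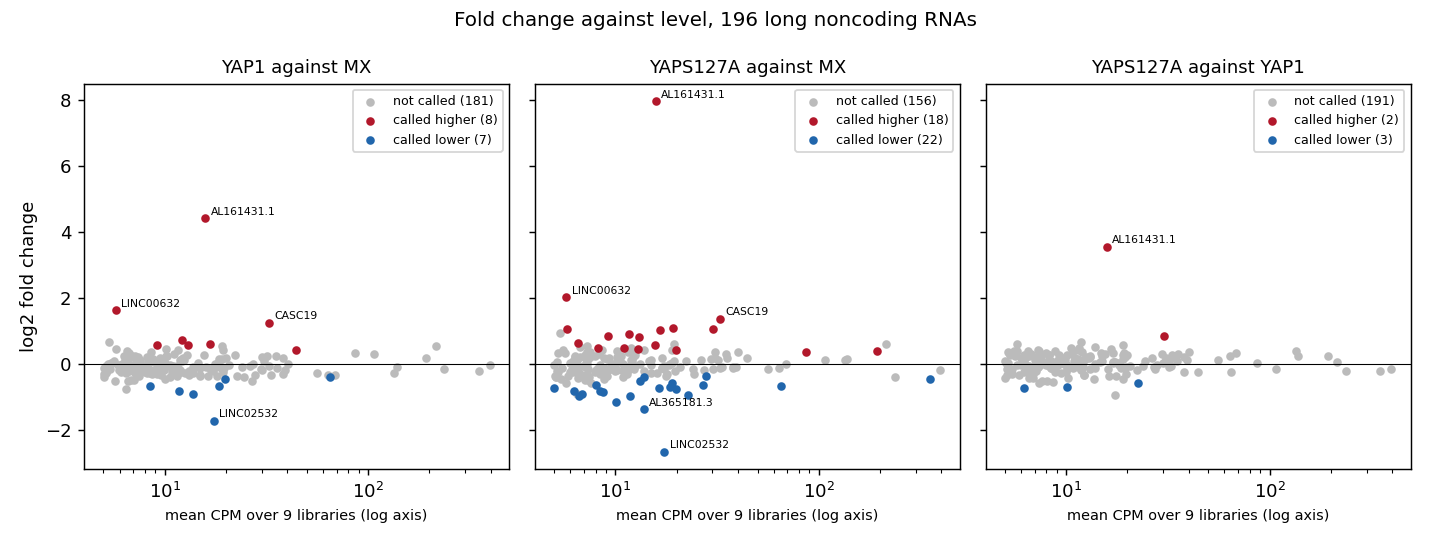
Log2 fold change (vertical axis) against mean CPM over 9 libraries (horizontal log axis) for the 196 RNAs, 1 panel per comparison, with called RNAs in red (higher) and blue (lower). The panels hold 15, 40 and 5 called RNAs, and AL161431.1 stands far above the others in each.

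At least a 2-fold difference was called for 10 RNAs in YAPS127A cells against MX cells, where 6.22% of all tested genes were, for 4 RNAs in YAP1 cells against MX cells (2.57% of all genes) and for 1 RNA between YAPS127A and YAP1 cells (0.8% of all genes). The 3 libraries of one group lay wholly above or below those of the other for 61 RNAs in YAPS127A against MX, for 51 in YAP1 against MX and for 50 in YAPS127A against YAP1, while 32.6%, 24.1% and 19.6% of all tested genes did so. The 15 RNAs called by adjusted p in YAP1 against MX became 9 without YAP1 replicate 3. The 5 so called in YAPS127A against YAP1 became 8 without MX replicate 1, 2 without YAP1 replicate 1, YAP1 replicate 3 or YAPS127A replicate 2, and 1 without YAP1 replicate 2 or YAPS127A replicate 3.

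AL161431.1, a lincRNA of chromosome 13 (chr13:109269634-109278512, plus strand, in the coordinates of the deposited table, whose build is not stated in the sources used here), differed most. It had 36.9, 38.2 and 55.3 CPM in YAPS127A cells, 6.84, 2.95 and 1.51 CPM in YAP1 cells, and 0.214, 0.363 and 0 CPM in MX cells. The groups did not overlap. The raw counts behind these levels sum to 2138 in YAPS127A, 218 in YAP1 and 12 in MX libraries, so the RNA met the count minimum through the YAPS127A libraries alone, its mean over the other 6 being 38.3. The log2 fold change was 7.95 ± 0.79 in YAPS127A against MX (adjusted p = 0.000543), 4.41 ± 0.94 in YAP1 against MX (adjusted p = 0.0395) and 3.55 ± 0.53 in YAPS127A against YAP1 (adjusted p = 0.0244). The call of YAP1 against MX was lost without any one MX library, YAP1 replicate 2, YAPS127A replicate 1 or YAPS127A replicate 2 (adjusted p 0.0603 to 0.111), and that of YAPS127A against YAP1 without YAP1 replicate 2, YAPS127A replicate 2 or YAPS127A replicate 3 (0.0745 to 0.115). The first was also lost with the mitochondrial share as a covariate (0.0581), YAPS127A replicate 2 alone (0.0797), no filter (0.0869) and total counts (0.0603), and the second with YAPS127A replicate 2 alone (0.190), the covariate (0.0698) and only the groups compared (0.0735). Of the coding genes within 500000 bases, 1 was tested and it was not called.

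LINC00632 and CASC19 were higher with both constructs. LINC00632 (chrX:140709562-140793215, plus strand) is the primary transcript of the circular RNA CDR1-AS, a binder of miR-7, and the counts of its gene cannot separate the linear from the circular form. It had 8.24, 7.93 and 9.67 CPM in YAPS127A cells, 6.06, 6.52 and 7.01 CPM in YAP1 cells and 2.496, 1.51 and 2.25 CPM in MX cells. Its mean count was 139 in YAPS127A and 51.7 in MX libraries, and 95.3 over both, so it met the minimum of 100 through the construct libraries, and the direction against MX is partly set by the choice. All construct libraries lay above all MX libraries, and the log2 fold change was 2.02 ± 0.21 in YAPS127A against MX (adjusted p = 9.59e-07) and 1.61 ± 0.21 in YAP1 against MX (adjusted p = 4.42e-05). YAPS127A libraries also lay above YAP1 libraries, but the difference of 0.40 ± 0.19 was not called (adjusted p = 0.405).

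CASC19, a cancer susceptibility RNA of chromosome 8, had 47.1, 33.0 and 47.6 CPM in YAPS127A cells, 47.2, 33.6 and 35.6 CPM in YAP1 cells and 17.4, 15.1 and 16.9 CPM in MX cells. The construct groups overlapped each other and neither reached down to MX. The log2 fold change was 1.37 ± 0.16 in YAPS127A against MX (adjusted p = 3.91e-06) and 1.23 ± 0.16 in YAP1 against MX (adjusted p = 3.72e-05).

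Further RNAs were higher in YAPS127A cells. AC078850.1 (chr4:128567972-128570531, minus strand) had 43.5, 40.3 and 48.6 CPM in YAPS127A cells, 25.2, 26.6 and 22.8 CPM in YAP1 cells and 21.3, 25.03 and 17.9 CPM in MX cells. Here the YAP1 and MX libraries overlapped and the YAPS127A libraries stood above both, with log2 fold changes of 1.05 ± 0.14 against MX (adjusted p = 1.62e-05) and 0.83 ± 0.13 against YAP1 (adjusted p = 0.00197). It was the only one of the 5 calls between the constructs that held whichever single library was left out, although with YAPS127A replicate 2 alone, the YAPS127A library with the lowest mitochondrial share, its adjusted p was 0.135. MANCR (chr10:4650185-4678154, minus strand), known as a mitotically associated RNA of breast cancer cells, had 21.8, 22.4 and 23.0 CPM in YAPS127A cells, 14.3, 16.3 and 19.1 CPM in YAP1 cells and 11.2, 11.3 and 10.6 CPM in MX cells. The 3 groups did not overlap. Its log2 fold change was 1.03 ± 0.14 in YAPS127A against MX (adjusted p = 2.61e-05) and 0.59 ± 0.14 in YAP1 against MX (adjusted p = 0.0112), the second of which was lost without MX replicate 3 or YAP1 replicate 3 (adjusted p 0.0564 to 0.105) and with total counts (0.0676). AC022784.1 was higher by 0.91 ± 0.15 in YAPS127A against MX (adjusted p = 0.000229).

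LINC01605 (chromosome 8) had its highest levels in YAP1 cells. It had 11.9, 12.6 and 11.4 CPM in YAPS127A cells, 15.6, 14.8 and 15.4 CPM in YAP1 cells and 9.59, 8.64 and 9.73 CPM in MX cells. It was called in YAP1 against MX, with 0.71 ± 0.14 (adjusted p = 0.0024), and not in YAPS127A against MX, with 0.36 ± 0.14 (adjusted p = 0.0816), nor in YAPS127A against YAP1, with -0.35 ± 0.14 (adjusted p = 0.267). NOP14-AS1 was called in YAP1 against MX with 0.41 ± 0.12 (adjusted p = 0.0471), a call lost without any one YAP1 or MX library or YAPS127A replicate 2 (adjusted p 0.055 to 0.161), with the mitochondrial share as a covariate (0.0770) and with total counts (0.248).

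**Figure D2:**
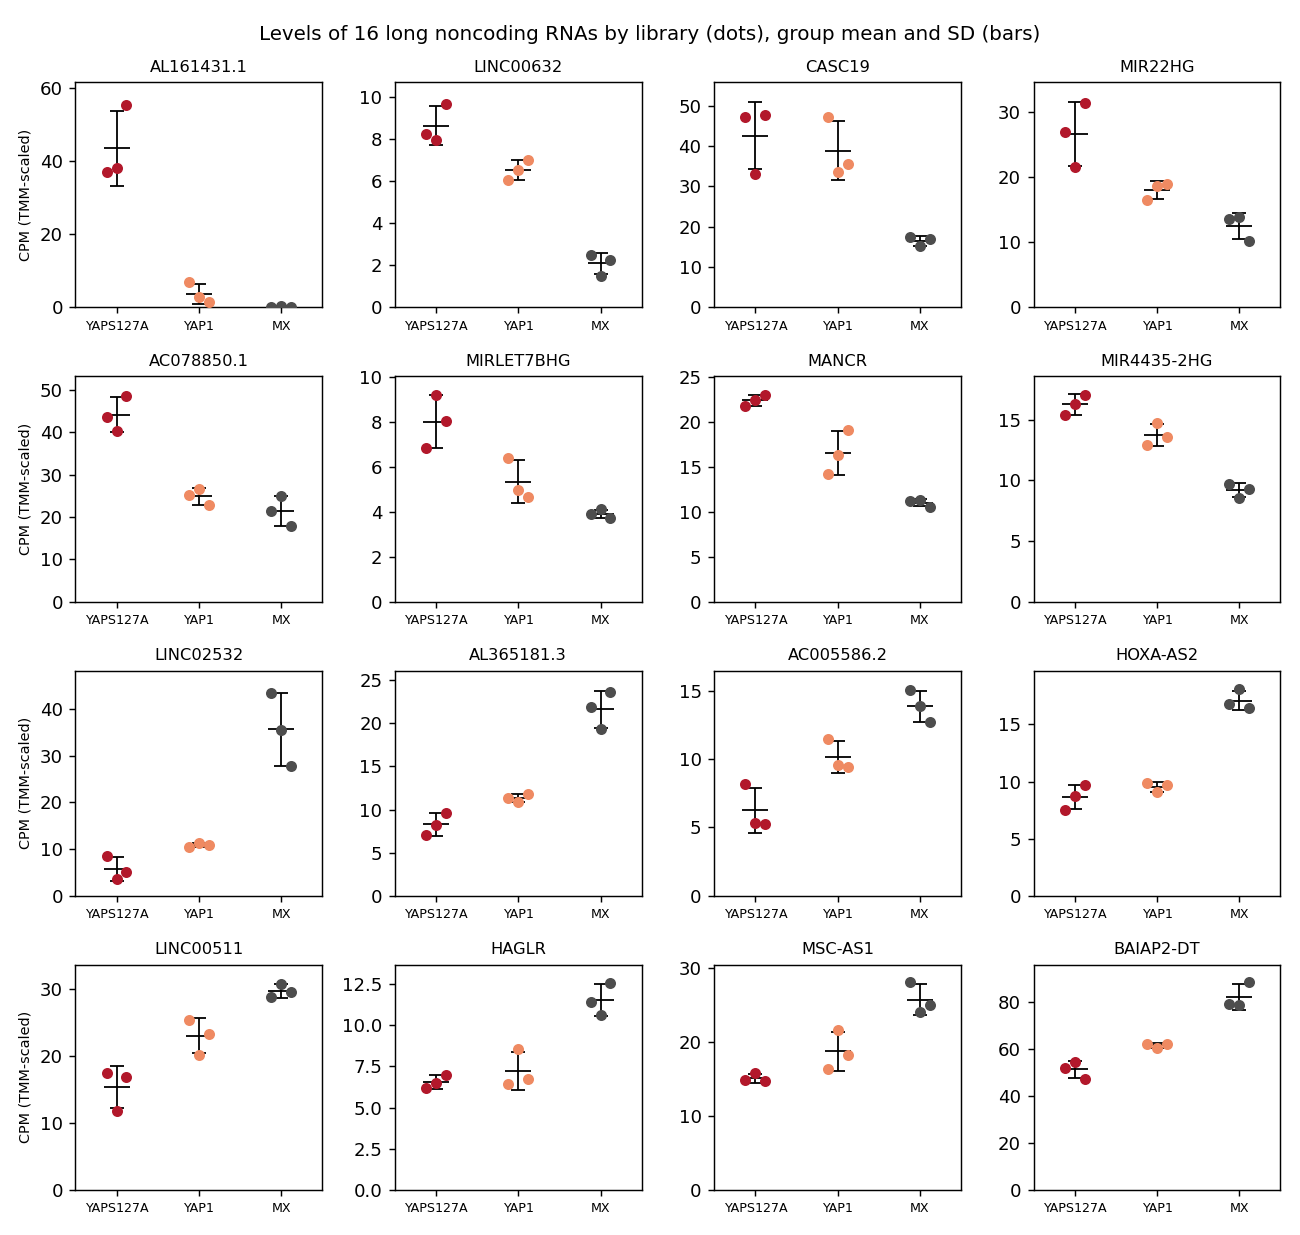
CPM by library (dots), group mean and SD (bars) for 16 RNAs, with YAPS127A left, YAP1 in the middle and MX right, each panel starting at 0. AL161431.1, AC078850.1 and MANCR are highest in all 3 YAPS127A libraries, and LINC02532 lies at 3.49 to 8.54 CPM in YAPS127A cells, 10.5 to 11.3 in YAP1 cells and 27.9 to 43.5 in MX cells.

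Among host genes of microRNAs, 10 of the 37 listed symbols were among the 196. In YAPS127A cells against MX cells, 3 of these 10 rose and 1 fell, in YAP1 cells against MX cells 1 rose (18.4% and 6.81% of all tested genes were called), and between the constructs edgeR and voom called 0 and DESeq2 1, where 3 had an unadjusted p under 0.05 and the median log2 fold change was 0.27, with 0.0056 over all tested genes. MIR22HG (chr17:1711493-1717174, minus strand), whose exon holds miR-22, had 26.9, 21.6 and 31.5 CPM in YAPS127A cells, 16.5, 18.7 and 19.03 CPM in YAP1 cells and 13.6, 13.9 and 10.3 CPM in MX cells. Every YAPS127A library exceeded every YAP1 library, and every YAP1 library exceeded the MX libraries. The log2 fold change was 1.09 ± 0.16 in YAPS127A against MX (adjusted p = 6.15e-05) and 0.53 ± 0.16 in YAP1 against MX, which was not called (adjusted p = 0.0503). Of 19 tested coding genes within 500000 bases, 0 were called higher and 4 lower in YAPS127A against MX. SERPINF2, 25662 bases away, differed by -2.82 ± 0.17 (adjusted p = 1.53e-09).

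MIRLET7BHG (chr22:46053869-46113928, plus strand), host of let-7a-3 and let-7b, had 6.86, 9.20 and 8.04 CPM in YAPS127A cells, 6.43, 4.99 and 4.66 CPM in YAP1 cells and 3.89, 4.11 and 3.72 CPM in MX cells, and differed by 1.05 ± 0.19 in YAPS127A against MX (adjusted p = 0.000674). Its mean count without the YAPS127A libraries was 98.8, just under the minimum. MIR4435-2HG (chr2:111036776-111523376, minus strand) had 15.4, 16.3 and 17.1 CPM in YAPS127A cells, 13.0, 14.7 and 13.6 CPM in YAP1 cells and 9.73, 8.58 and 9.32 CPM in MX cells. It rose by 0.82 ± 0.14 in YAPS127A against MX (adjusted p = 0.000274) and by 0.57 ± 0.14 in YAP1 against MX (adjusted p = 0.0129, 0.0776 without YAP1 replicate 2 and 0.0988 with total counts). Its near copy CYTOR, also on chromosome 2, rose by 0.57 ± 0.16 in YAPS127A against MX (adjusted p = 0.0143), a call lost without MX replicate 3 or YAPS127A replicate 3 (0.0898 to 0.108), with YAPS127A replicate 2 alone (0.117), with the mitochondrial share as a covariate (0.0654) and with total counts (0.207). Reads of these copies may be split in ways that cannot be checked, so the value of each is uncertain. LINC00472 fell by 0.65 ± 0.21 on the log2 scale in YAPS127A against MX (adjusted p = 0.0363), a call lost without MX replicate 1, MX replicate 2, YAP1 replicate 2, YAPS127A replicate 2 or YAPS127A replicate 3 (0.0516 to 0.170). Of 3 tested coding genes within 500000 bases of it, 2 were called higher and 0 lower in that comparison. OGFRL1, 35394 bases away, differed by 0.81 ± 0.12 (adjusted p = 8.40e-05). MIR100HG, a host of miR-100 and let-7a-2, had 27.8, 28.1 and 28.3 CPM in YAPS127A cells, 29.7, 23.1 and 22.0 CPM in YAP1 cells and 33.0, 23.8 and 21.6 CPM in MX cells and was not called. The levels of host transcripts do not measure the mature microRNAs, which were not sequenced.

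The host genes of snoRNAs, whose introns release the guides of ribosomal RNA modification, gave 19 of the 196 from 35 listed symbols. In YAPS127A against MX 3 of the 19 rose, 1 fell and 15 were not called, a share near the 18.4% called among all tested genes, and 0 were called by edgeR, DESeq2 or voom in YAP1 against MX and in YAPS127A against YAP1, where 3 had an unadjusted p under 0.05 in each by edgeR. The median log2 fold change of the 19 was 0.15 in YAPS127A against MX, -0.14 in YAP1 against MX and 0.22 in YAPS127A against YAP1, beside medians near 0 for all tested genes. Between the constructs 17 of the 19 had a positive value, from -0.36 to 0.40. With libraries scaled by total counts, where the median of all genes was -0.28 in YAPS127A against MX and -0.20 in YAPS127A against YAP1, the median of the 19 was -0.13 and 0.01, with 5 and 10 positive.

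SNHG5, the most abundant per kilobase, had 225, 207 and 229.5 CPM in YAPS127A cells, 209, 186 and 172 CPM in YAP1 cells and 154, 201 and 152 CPM in MX cells. YAPS127A libraries lay above MX libraries, and the difference was 0.39 ± 0.13 (adjusted p = 0.0404). SNHG16 rose by 0.34 ± 0.11 (adjusted p = 0.0398) and SNHG15 by 0.44 ± 0.15 (adjusted p = 0.0459) in the same comparison. These 3 calls sit close to the threshold. Each was lost without 7 of the 9 libraries in turn: that of SNHG5 stayed without MX replicate 2 and YAP1 replicate 1 (otherwise 0.0517 to 0.184), that of SNHG16 without MX replicate 1 and YAP1 replicate 1 (0.0508 to 0.180) and that of SNHG15 without MX replicate 2 and YAPS127A replicate 2 (0.0503 to 0.225). With YAPS127A replicate 2 as the only YAPS127A library their adjusted p was 0.430, 0.348 and 0.535. The libraries with a mitochondrial share above 20%, YAPS127A replicates 1 and 3, had SNHG5 at 225 and 229.5 CPM, against 207 CPM in replicate 2. With the mitochondrial share as a covariate the adjusted p of SNHG5, SNHG16 and SNHG15 was 0.322, 0.359 and 0.487. With total counts it was 0.617, 0.799 and 0.526, and with only the groups compared 0.0664, 0.0785 and 0.0862.

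EPB41L4A-AS1 went the other way. It had 12.4, 12.2 and 12.5 CPM in YAPS127A cells, 21.0, 14.1 and 12.8 CPM in YAP1 cells and 18.6, 25.8 and 17.7 CPM in MX cells. YAPS127A and MX libraries did not overlap, and the difference was -0.73 ± 0.18 (adjusted p = 0.00748, 0.126 with YAPS127A replicate 2 alone and 0.174 with the mitochondrial share as a covariate). GAS5, known to accumulate in growth-arrested cells, had 144, 135 and 173 CPM in YAPS127A cells, 126, 119 and 97.8 CPM in YAP1 cells and 144, 163 and 111 CPM in MX cells. The 0.40 ± 0.14 between YAPS127A and YAP1 was not called (adjusted p = 0.218).

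**Figure D3:**
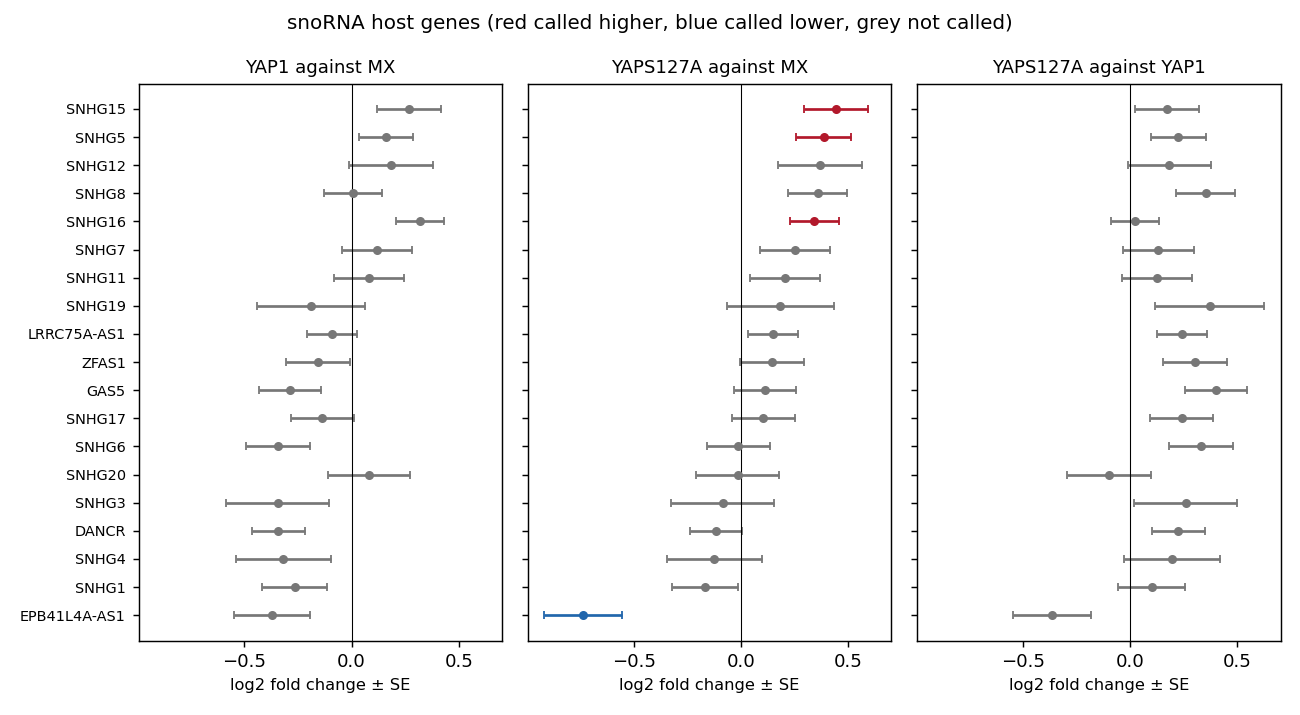
Log2 fold change ± SE (horizontal axis) of the 19 snoRNA host genes, 1 row each, in the 3 comparisons, with red called higher, blue called lower and grey not called. SNHG15, SNHG5 and SNHG16 are red and EPB41L4A-AS1 is blue in YAPS127A against MX, and the other panels are grey throughout.

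The listed RNAs of nuclear architecture gave 3 of the 196, MALAT1, NEAT1 and FTX, and 0 were called in any comparison by edgeR, DESeq2 or voom, or had an unadjusted p under 0.05. NEAT1 had 397, 257 and 439.5 CPM in YAPS127A cells, 475, 348 and 395 CPM in YAP1 cells and 538, 428 and 291 CPM in MX cells. MALAT1, of nuclear speckles, had 304, 111 and 325 CPM in YAPS127A cells, 240.2, 236 and 229 CPM in YAP1 cells and 289, 117 and 82.5 CPM in MX cells. Its libraries spread widely within YAPS127A and within MX, its SE was 0.58, and the 0.60 in YAPS127A against MX was not called (adjusted p = 0.552). Of the listed p53, growth arrest and DNA damage RNAs, 5 were among the 196 (NEAT1, NORAD, GAS5, TP53TG1 and MIR34AHG) and 0 were called by edgeR or voom in any comparison, while DESeq2 called 1 in YAPS127A against MX, with 1 below an unadjusted p of 0.05 in YAPS127A against MX, 0 in YAP1 against MX and 1 in YAPS127A against YAP1. NORAD had 210.2, 204 and 198 CPM in YAPS127A cells, 244, 237 and 233 CPM in YAP1 cells and 343, 231 and 231 CPM in MX cells, and its -0.40 ± 0.14 in YAPS127A against MX missed the threshold (adjusted p = 0.052).

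The largest fall was that of LINC02532 (chr6:106717452-106787541, minus strand). It had 8.54, 3.49 and 5.04 CPM in YAPS127A cells, 10.5, 11.3 and 10.8 CPM in YAP1 cells and 43.5, 35.6 and 27.9 CPM in MX cells. The groups did not overlap. The log2 fold change was -2.67 ± 0.24 in YAPS127A against MX (adjusted p = 7.43e-07) and -1.72 ± 0.22 in YAP1 against MX (adjusted p = 0.000104), and -0.95 ± 0.24 between YAPS127A and YAP1 was not called (adjusted p = 0.0577). Coding neighbours within 500000 bases went both ways: in YAPS127A against MX, CRYBG1 differed by -1.17 and CD24 by -0.77, and ATG5 by 0.56.

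AL365181.3 (chr1:156641666-156644887, minus strand), an antisense RNA, had 7.02, 8.18 and 9.61 CPM in YAPS127A cells, 11.3, 10.9 and 11.8 CPM in YAP1 cells and 21.9, 19.3 and 23.7 CPM in MX cells. It differed by -1.38 ± 0.15 in YAPS127A against MX (adjusted p = 1.87e-06) and by -0.93 ± 0.14 in YAP1 against MX (adjusted p = 0.000328). NES, which encodes the intermediate filament nestin and lies 23876 bases away, averaged 20.8 CPM in YAPS127A cells, 37.1 in YAP1 cells and 105 in MX cells, a difference of -2.34 ± 0.13 in YAPS127A against MX (adjusted p = 4.03e-10). CRABP2, a retinoic acid carrier 54719 bases away, differed by -1.60, while PEAR1, 248811 bases away, differed by 1.27 in that comparison. Of 24 tested coding genes within 500000 bases of AL365181.3, 1 was called higher and 2 lower in YAPS127A against MX. Their median log2 fold change was -0.02. AC005586.2 (chr7:150337483-150343346, plus strand) had 8.16, 5.33 and 5.25 CPM in YAPS127A cells, 11.5, 9.58 and 9.41 CPM in YAP1 cells and 15.0, 13.8 and 12.7 CPM in MX cells. It differed by -1.16 ± 0.18 in YAPS127A against MX (adjusted p = 0.000115) and by -0.71 ± 0.18 between YAPS127A and YAP1 (adjusted p = 0.0491), the second of which was lost without MX replicate 3, any one YAP1 library, YAPS127A replicate 2 or YAPS127A replicate 3 (0.0628 to 0.279), with YAPS127A replicate 2 alone (0.105) and with the mitochondrial share as a covariate (0.0559). RPARP-AS1, at -0.97 ± 0.19 in YAPS127A against MX (adjusted p = 0.00126), whose mean count without the MX libraries was 98.3, and AC027031.2, at -0.72 ± 0.14 (adjusted p = 0.0013), were also lower. The call of AC005586.2 between YAPS127A and YAP1 was also lost with voom (0.0626) and the stricter filter (0.0544). Of 9 tested coding genes within 500000 bases of AC005586.2, 2 were called higher and 0 lower in YAPS127A against MX. LRRC61, which AC005586.2 overlaps, differed by 0.40 ± 0.14 (adjusted p = 0.0468).

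Of the listed RNAs described in carcinomas, 17 of 54 symbols were among the 196. In YAPS127A against MX 3 rose (CASC19, MIR4435-2HG and CYTOR) and 5 fell (HOXA-AS2, HAGLR, LINC00511, CASC15 and AFAP1-AS1), in YAP1 against MX 2 rose and 2 fell, and between the constructs 1 fell, where 18.4%, 6.81% and 1.97% of all tested genes were called. The median log2 fold change of the 17 was -0.14, -0.08 and -0.10 in these comparisons. LINC00511 (chr17:72290091-72640472, minus strand) had 17.5, 11.8 and 16.8 CPM in YAPS127A cells, 25.3, 20.2 and 23.3 CPM in YAP1 cells and 28.7, 30.7 and 29.5 CPM in MX cells. The 3 groups did not overlap. It differed by -0.95 ± 0.15 in YAPS127A against MX (adjusted p = 0.000131) and by -0.37 ± 0.14 in YAP1 against MX (adjusted p = 0.145). Between YAPS127A and YAP1 it differed by -0.58 ± 0.15 (adjusted p = 0.0495). That call was lost without MX replicate 3, any one YAP1 library, YAPS127A replicate 2 or YAPS127A replicate 3 (0.0651 to 0.246). It was also lost with RLE scaling (0.0505), voom (0.0659) and the stricter filter (0.0586). SOX9, a transcription factor gene 163671 bases away, averaged 67.6 CPM in YAPS127A cells, 103 in YAP1 cells and 137 in MX cells and differed by -1.02 ± 0.15 in YAPS127A against MX (adjusted p = 7.41e-05).

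CASC15 differed by -0.74 ± 0.21 in YAPS127A against MX (adjusted p = 0.0157), a call lost without MX replicate 2 or YAPS127A replicate 3 (0.0542 to 0.0697), with YAPS127A replicate 2 alone (0.163) and with the mitochondrial share as a covariate (0.0665), and its mean count without the MX libraries was 79.7. SOX4, 66153 bases away, differed by -0.58 ± 0.12 (adjusted p = 0.00162). AFAP1-AS1 had 346, 268 and 279 CPM in YAPS127A cells, 384, 321 and 338 CPM in YAP1 cells and 441, 357 and 426 CPM in MX cells. Its -0.45 ± 0.13 in YAPS127A against MX (adjusted p = 0.019) was lost without MX replicate 3, YAPS127A replicate 2 or YAPS127A replicate 3 (0.0668 to 0.0916), with YAPS127A replicate 2 alone (0.0637) and with the mitochondrial share as a covariate (0.0708). Its coding partner AFAP1, which encodes an actin filament binding protein, had 62.8, 70.4 and 55.1 CPM in YAPS127A cells and 53.7, 48.1 and 48.9 CPM in MX cells and was not called, with 0.32 ± 0.12 (adjusted p = 0.0802). Of 4 tested coding genes within 500000 bases of AFAP1-AS1, 2 were called higher and 1 lower in that comparison. SORCS2, 11254 bases away, differed by 0.93 ± 0.12 (adjusted p = 1.08e-05). LINC00958 and PVT1, a host of microRNAs beside MYC, were not called in any comparison.

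Of 18 listed RNAs of the HOX clusters, 3 were among the 196 and the other 15 were under the minimum. HOXA-AS2 (chr7:27107777-27134302, plus strand) had 7.55, 8.75 and 9.67 CPM in YAPS127A cells, 9.85, 9.07 and 9.67 CPM in YAP1 cells and 16.8, 18.1 and 16.5 CPM in MX cells, and differed by -0.97 ± 0.14 in YAPS127A against MX (adjusted p = 7.89e-05) and by -0.84 ± 0.14 in YAP1 against MX (adjusted p = 0.000738). Among the coding genes around it, HOXA3, HOXA4, HOXA5, HOXA6 and HOXA10 were lower and HOXA13 was higher in YAPS127A against MX, with a log2 fold change of -1.11 ± 0.16 for HOXA5 (adjusted p = 7.62e-05) and of 3.39 ± 0.53 for HOXA13 (adjusted p = 0.000124). HAGLR (chr2:176164051-176188958, minus strand), of the HOXD cluster, had 6.18, 6.47 and 6.99 CPM in YAPS127A cells, 6.43, 8.56 and 6.74 CPM in YAP1 cells and 11.4, 10.6 and 12.6 CPM in MX cells. It differed by -0.82 ± 0.16 in YAPS127A against MX (adjusted p = 0.0015, and 0.0585 with the mitochondrial share as a covariate) and by -0.68 ± 0.16 in YAP1 against MX (adjusted p = 0.0127), the second of which was lost without MX replicate 3, YAP1 replicate 1 or YAP1 replicate 3 (0.0634 to 0.0797). HOTAIRM1 had 7.24, 8.69 and 10.6 CPM in YAPS127A cells, 6.01, 6.06 and 8.03 CPM in YAP1 cells and 6.03, 9.01 and 3.72 CPM in MX cells and was not called.

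A coding gene is named in the symbol of 51 of the 196 RNAs, as in antisense (AS) and divergent (DT) transcripts, and both genes were tested in 47 pairs, of which 35 overlap. In YAPS127A against MX, the RNA was called in 9 pairs, the coding gene in 9 and both in 2; in YAP1 against MX these counts were 4, 2 and 1, and in YAPS127A against YAP1 they were 1, 2 and 0. Of all tested genes 18.4%, 6.81% and 1.97% were called in these comparisons, so the shares among the RNAs of the pairs are near the background. The signs of the pair matched in 24, 27 and 25 of the 47 pairs. Across the 47 pairs, which are genes and not independent replicates, Pearson's r of the log2 fold changes was 0.25, 0.41 and 0.21 and Spearman's rho 0.24, 0.18 and 0.17. Both genes of a pair come from the same libraries, and overlapping pairs may share reads.

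MSC-AS1 (chromosome 8) had 14.8, 15.7 and 14.7 CPM in YAPS127A cells, 16.4, 21.5 and 18.2 CPM in YAP1 cells and 28.0, 24.1 and 24.9 CPM in MX cells. Its partner MSC, which encodes the repressor musculin, had 132, 123 and 115 CPM in YAPS127A cells, 198, 194 and 177 CPM in YAP1 cells and 278, 490 and 352 CPM in MX cells. Both were lower with each construct. In YAPS127A against MX the log2 fold change was -0.77 ± 0.13 for MSC-AS1 (adjusted p = 0.000418) and -1.60 ± 0.16 for MSC (adjusted p = 6.74e-07). In YAP1 against MX it was -0.46 ± 0.13 for MSC-AS1 (adjusted p = 0.0412) and -0.98 ± 0.16 for MSC (adjusted p = 0.000464). The call of MSC-AS1 in YAP1 against MX was lost without MX replicate 1 or 3, YAP1 replicate 1 or 3, or YAPS127A replicate 1 or 3 (0.054 to 0.161), with YAPS127A replicate 2 alone (0.0701) and with the mitochondrial share as a covariate (0.0573). LHX1-DT had 15.5, 14.1 and 14.6 CPM in YAPS127A cells, 23.3, 18.4 and 18.9 CPM in YAP1 cells and 19.9, 22.3 and 24.0 CPM in MX cells. It differed by -0.58 ± 0.14 in YAPS127A against MX (adjusted p = 0.0051, 0.0755 with YAPS127A replicate 2 alone and 0.125 with the mitochondrial share as a covariate), and its partner LHX1, a transcription factor of kidney development, by -0.62 ± 0.13 (adjusted p = 0.0026).

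In other pairs the RNA was called and its partner was not, and the difference between the 2 genes of a pair was not tested. BAIAP2-DT (chr17:81029130-81034881, minus strand) had 52.0, 54.7 and 47.2 CPM in YAPS127A cells, 62.1, 60.3 and 62.2 CPM in YAP1 cells and 79.0, 78.6 and 88.4 CPM in MX cells, and differed by -0.68 ± 0.11 in YAPS127A against MX (adjusted p = 0.000191) and by -0.41 ± 0.11 in YAP1 against MX (adjusted p = 0.0239). The second call was lost without MX replicate 3 or any one YAP1 library (0.0615 to 0.119). BAIAP2, 241 bases away, had 70.0, 88.8 and 76.8 CPM in YAPS127A cells and 56.6, 79.2 and 83.1 CPM in MX cells, with a difference of 0.11 ± 0.14 that was not called (adjusted p = 0.644). NUP50-DT differed by 0.84 ± 0.17 in YAPS127A against MX (adjusted p = 0.00137, 0.266 with YAPS127A replicate 2 alone and 0.188 with the mitochondrial share as a covariate), and NUP50, which encodes a nuclear pore protein, by 0.07 ± 0.13 (adjusted p = 0.743). Conversely, DLGAP1, with 12.4, 3.74 and 5.25 CPM in YAPS127A cells and 35.0, 30.9 and 36.6 CPM in MX cells, differed by -2.29 ± 0.35 (adjusted p = 0.00175), while its antisense RNAs DLGAP1-AS1 and DLGAP1-AS2 had -0.18 and 0.31 and were not called.

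ASB16-AS1 had 3.97, 4.69 and 3.99 CPM in YAPS127A cells, 6.84, 6.63 and 7.68 CPM in YAP1 cells and 8.02, 7.56 and 6.69 CPM in MX cells. It was lower in YAPS127A cells than in both other groups. The call against YAP1 was lost without any one YAP1 or YAPS127A library (adjusted p 0.0594 to 0.181) and with voom (0.0614). The log2 fold changes were -0.81 ± 0.18 against MX (adjusted p = 0.00305) and -0.74 ± 0.18 against YAP1 (adjusted p = 0.0372). With YAPS127A replicate 2 alone their adjusted p was 0.150 and 0.492, and with the mitochondrial share as a covariate 0.0890 and 0.201.

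**Figure D4:**
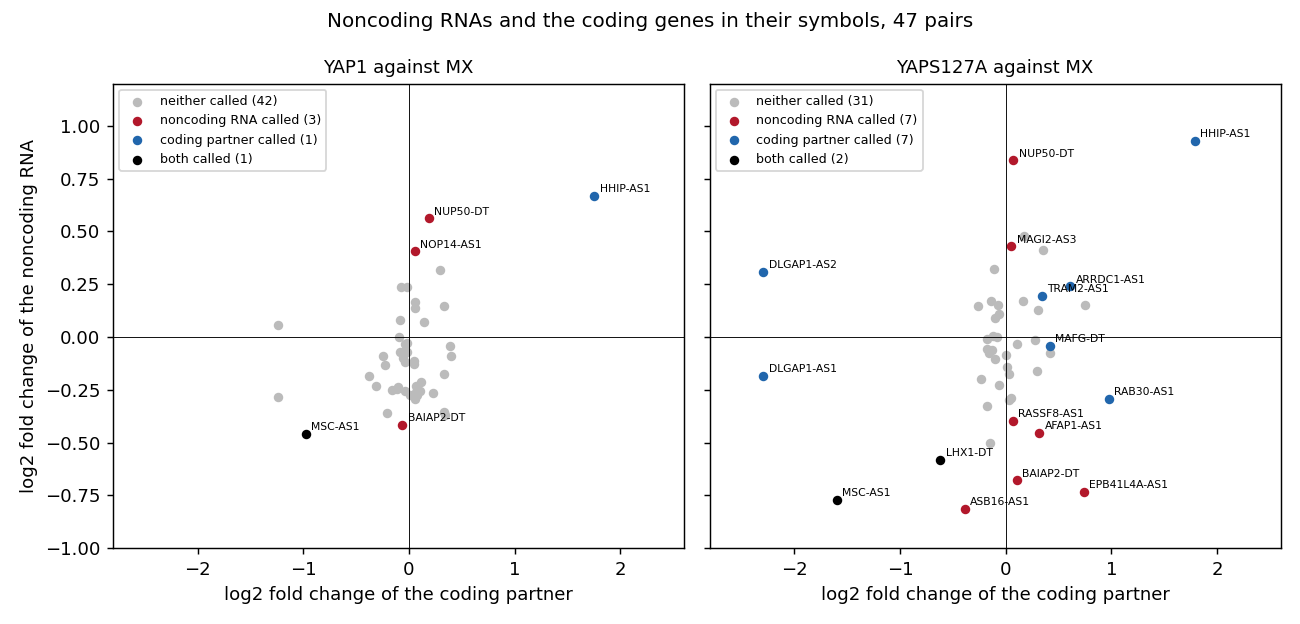
Log2 fold change of the noncoding RNA (vertical axis) against that of the coding gene in its symbol (horizontal axis) for 47 pairs, in YAP1 against MX (left) and YAPS127A against MX (right), coloured by which of the pair was called. MSC-AS1 with MSC is called in both panels and LHX1-DT with LHX1 in the right one, and the other called genes have a partner that was not called.

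Within 500000 bases of the 40 RNAs called in YAPS127A against MX, 292 coding genes were tested, of which 41 (14.04%) were called in the direction of the RNA and 31 (10.6%) in the other, and 11 of the 40 had no called coding neighbour; of all tested genes 9.53% were called higher and 8.84% lower in that comparison. Around the 15 RNAs called in YAP1 against MX, 10 of 103 neighbours (9.71%) were called in the same and 7 (6.80%) in the other direction, where 3.23% of all tested genes were called higher and 3.58% lower. Of the 10348 coding genes with a mean count of at least 100, 10.7% were called higher and 9.13% lower in YAPS127A against MX. In YAP1 against MX these shares were 3.75% and 3.43%. Clustered neighbours were counted separately, and FBLN1, near both NUP50-DT and MIRLET7BHG, was counted for each. Whether neighbours exceed the background was not tested.

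As a share of all counts, the 196 RNAs together took 0.378, 0.400 and 0.425% in YAPS127A libraries, 0.507, 0.431 and 0.427% in YAP1 libraries and 0.569, 0.474 and 0.451% in MX libraries. YAPS127A libraries lay below the others, with an exact permutation p of 0.1 against each group (two-sided, 3 libraries each), the smallest this design can give, and 0.15 after adjustment over 3 pairs. YAP1 and MX libraries overlapped (exact permutation p = 0.5). Of the counts without genes of the mitochondrial genome, the 196 took 0.537, 0.432 and 0.539% in YAPS127A libraries, 0.525, 0.472 and 0.482% in YAP1 libraries and 0.604, 0.507 and 0.459% in MX libraries, and the groups overlapped (exact permutation p of 0.9 for YAPS127A against MX, 0.8 for YAPS127A against YAP1 and 0.7 for YAP1 against MX).

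**Figure D5:**
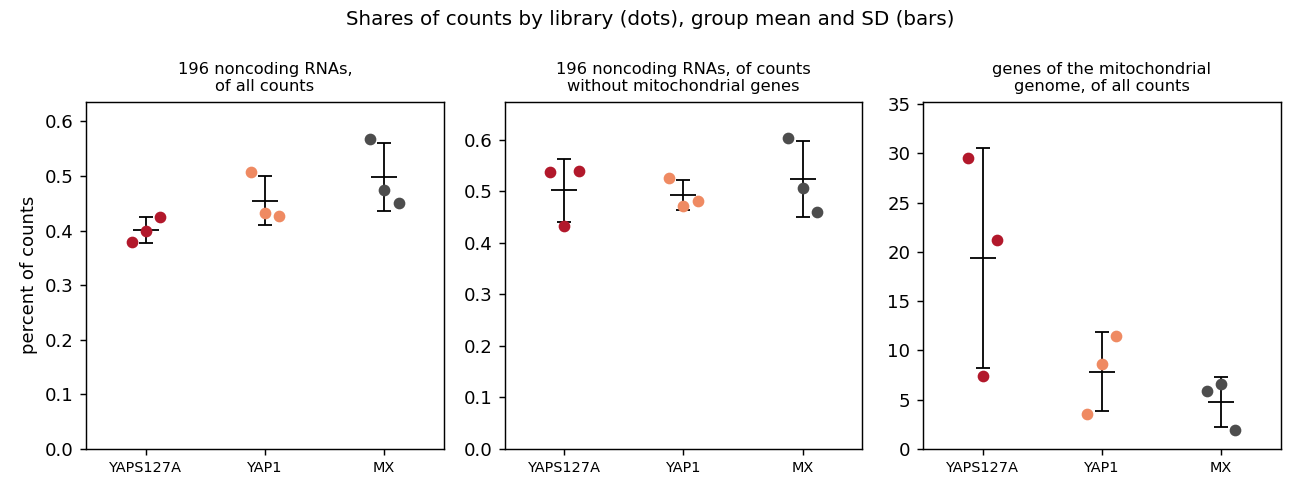
Percent of counts by library (dots), group mean and SD (bars): the 196 RNAs of all counts (left), of counts without mitochondrial genes (middle), and genes of the mitochondrial genome (right). The YAPS127A libraries lie at 0.378 to 0.425% in the left panel, below all others, and overlap the other groups in the middle one, and in the right panel 2 of them stand above 20%.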

How the data were processed

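The authors deposited 1 table of raw read counts per gene, whole numbers with no normalization, for 9 human cell line libraries in 3 groups. The submitters' processing notes name Cufflinks, HISAT2, Salmon 1.9.0 and the mouse build GRCm39 without saying what each did. The table lists human genes, so another build must lie behind it. Which human build and annotation, which counter and which strand setting were used is not stated in the sources used here.

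From these counts, edgeR 4.0.16 in R 4.3.3 kept 15492 of 58735 genes (filterByExpr), scaled libraries by TMM and fitted all 9 libraries with group as the only term (robust quasi-likelihood). Each of the 3 contrasts had a two-sided test, with Benjamini-Hochberg adjustment over the tested genes and a threshold of 0.05. SE is the size of the log2 fold change over the square root of its F statistic. CPM values are TMM-scaled. Gene lengths are those in the table. The code was tested on simulated data. Alternatives were DESeq2 1.42.0, voom of limma 3.58.1, other scalings and filters, a replicate block, single libraries left out, and, chosen after seeing the data, 3 treatments of the mitochondrial share.

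The RNAs and lists were chosen with earlier results of these data known. Named are the 10 highest per kilobase and up to 8 largest rises and falls per comparison among calls whose groups do not overlap. Called and most counted list members and pairs called together are also named, but not all are. Coding neighbours, DLGAP1, NUP50, AFAP1, BAIAP2 and HHIP were chosen after their values were seen. Library totals limit precision, and floors cover counting error only.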

Additional observations from a re-analysis of the deposited data

How the results depend on the processing

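No called RNA changed sign under any setting, and 18 of 40 calls in YAPS127A against MX, 7 of 15 in YAP1 against MX and 0 of 5 in YAPS127A against YAP1 held under every setting. Leaving out single libraries gave 27 to 39, 9 to 16 and 1 to 8 calls in these comparisons. Scaling by total counts moved the median of all genes by -0.28 in YAPS127A against MX, where it called 69 RNAs, 10 higher and 59 lower, and by -0.20 in YAPS127A against YAP1, where it called 12, 2 higher and 10 lower. With YAPS127A replicate 2 alone the counts were 25 in YAPS127A against MX and 2 in YAPS127A against YAP1. The mitochondrial share as a covariate left 28 calls in YAPS127A against MX, and leaving out mitochondrial genes 41. Over all tested genes the covariate gave 1405 calls in that comparison and total counts 4447, where the main fit called 2845. Between the constructs DESeq2, no filter and a fit of only these groups called 8 each, voom 2 and the stricter filter 3. Among the 33 RNAs with a mean count of at least 500, the calls were 8 in YAPS127A against MX, 3 in YAP1 against MX and 1 in YAPS127A against YAP1, and among the 91 that overlap no coding gene they were 20, 8 and 3, by construction from fewer RNAs. Other causes were not tested.

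Deviations from the group means correlated at -0.178 to 0.204 between same-numbered libraries of different groups. Between libraries with different numbers they correlated at -0.254 to 0.207. With 3 libraries per group this cannot decide whether the numbers pair the libraries. With a replicate block the calls were 46 in YAPS127A against MX, 15 in YAP1 against MX and 7 in YAPS127A against YAP1. Of the calls without it, 40, 14 and 4 were kept. Over all tested genes the block gave 3426, 1428 and 472 calls, where 2845, 1055 and 305 were called without it. AL161431.1 was not called with the block in YAP1 against MX (adjusted p = 0.108) or in YAPS127A against YAP1 (0.0818).

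The difference in the share of counts taken by the 196 RNAs between YAPS127A and YAP1, -0.0541 percentage points, was 0.00964 without mitochondrial genes. For MALAT1, NEAT1 and FTX together the difference was -0.0100 in YAPS127A against MX, 0.00157 without mitochondrial genes and -0.0214 to 0.00527 with single libraries left out, and in YAP1 against MX it was 0.00304, with -0.00836 to 0.0184. Single libraries left out gave -0.120 to -0.0611, -0.0684 to -0.00700 and -0.0681 to -0.0282 for the share of the 196 in YAPS127A against MX, YAP1 against MX and YAPS127A against YAP1, and -0.0202 to -0.00464 for the 3 nuclear RNAs in the last. RNAs with a mean count near 100 could be called only for larger differences.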

Other observations

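The 4 RNAs on chromosome 22 all had positive log2 fold changes in YAPS127A cells against MX cells, with a median of 0.66, and 3 of them were called (MIRLET7BHG, NUP50-DT and DGCR11), where 18.4% of all tested genes were called and 9.53% higher. With YAPS127A replicate 2 alone the adjusted p was 0.266 for NUP50-DT and 0.225 for DGCR11, and with the mitochondrial share as a covariate it was 0.188 and 0.216. This grouping was chosen after the values were seen. DGCR11, which lies in the region deleted in DiGeorge syndrome, had 9.23, 9.96 and 9.88 CPM in YAPS127A cells, 7.31, 7.99 and 8.70 CPM in YAP1 cells and 6.27, 7.37 and 7.29 CPM in MX cells. YAPS127A libraries lay above MX libraries, with a difference of 0.48 ± 0.16 (adjusted p = 0.040 in edgeR's quasi-likelihood test), and the call was lost without any one library but YAP1 replicate 1 (0.05004 to 0.119).

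HHIP-AS1, at the edge of the count minimum, was not called but had a log2 fold change of 0.93 in YAPS127A against MX and 0.67 in YAP1 against MX. Its mean count was 109.7 in YAPS127A, 110 in YAP1 and 80.7 in MX libraries. Without the YAPS127A libraries it was 95.3 and without the YAP1 libraries 95.2. HHIP-AS1 thus met the minimum through the construct libraries, and its direction against MX is partly set by the choice. The coding gene HHIP, an inhibitor of hedgehog ligands, had 4.35, 9.07 and 8.62 CPM in YAPS127A cells, 7.51, 9.52 and 4.75 CPM in YAP1 cells and 2.42, 2.42 and 1.62 CPM in MX cells. It was higher by 1.79 ± 0.30 in YAPS127A against MX (adjusted p = 0.000294) and by 1.75 ± 0.29 in YAP1 against MX (adjusted p = 0.000857).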
